A study of Mus musculus with 6 samples.

Results

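The Hedgehog pathway genes described here are the receptor Ptch1, the transducer Smo, the transcription factors Gli1, Gli2 and Gli3, the ligand-binding inhibitor Hhip, the ligand-releasing transporter Disp1 and its relative Disp2, and the co-receptor Gas1. They were found by symbol in a table of 49671 genes, and each of the 9 symbols had 1 row. The table covers 6 RNA sequencing libraries of LKPR EPCAM+ cells, an epithelial line sorted by FACS from a mouse skin squamous cell carcinoma. All 3 groups shared 1 genotype, which includes Lgr5CreER, p53fl/fl and Rosa26-YFP+/+, that is, a Cre recombinase driven from Lgr5, a gene of hair follicle stem cells, conditional loss of p53 and a YFP reporter. The empty vector group had been transduced with a lentivirus carrying the TRC1 control plasmid, the Ntn1 knock-down (Ntn1 KD) with a pLKO.1-puro plasmid against Ntn1, the gene of the secreted ligand netrin-1, and the Unc5b knock-down (Unc5b KD) with one against Unc5b, a netrin receptor. There were 2 libraries in each group, from living cells that were sorted at 6 days of culture as positive for both YFP and EPCAM, so any EPCAM-negative cells are left out. The number of hairpins and of clones is not given in the sources used here, nor whether replicate libraries stem from separate cultures, so p-values reflect the spread among these 6 libraries alone, which may be technical. With 2 libraries on each side, exact permutation cannot give a p below 0.333, so a model fitted across all genes was used.

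Hedgehog ligands (Sonic, Indian and Desert hedgehog, encoded by Shh, Ihh and Dhh) are lipid-modified proteins that a sending cell releases through Dispatched. Without ligand, Patched holds back Smoothened, and GLI3 is largely processed to a repressor. With ligand, Smoothened acts through the primary cilium to turn GLI2 and GLI3 into activators, and Ptch1, Hhip and Gli1 are the classical target genes, the first 2 of which dampen the signal in turn. In skin the pathway drives hair follicle growth, and its constant activation underlies basal cell carcinoma.

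Values are reads scaled to about 20 M (mega) per library, as deposited, and for every value up to 30000 the spacing gave whole reads within a rounding tolerance of 0.5, where 32.7 to 50.9% would do so by chance. By this spacing the libraries hold 6.54 to 10.2 M reads, and 1 read is worth 1.97 to 3.06. A count of 0 therefore allows a level of up to 5.90 to 9.17, the value of 3 reads, for counting error only. Genes with a mean of at least 20 over the 6 libraries passed the filter and were tested with limma on log2(value + 5), and a call is a Benjamini-Hochberg adjusted p under 0.05 over all 15330 of them. Each call was repeated under 14 alternatives, which were other added values, filters, scalings and fits and each library left out in turn. Ntn1 had levels of 1566 and 2588 in empty vector libraries 1 and 2, against 359 and 431 in Ntn1 KD. Unc5b was at 1527 and 1573 in the empty vector and at 419 and 352 in Unc5b KD, so each targeted gene was lower in its own knock-down. The other targeted gene moved as well. Ntn1 was at 1319 and 771 in Unc5b KD, below both empty vector libraries, a log2 difference of -0.99 that did not pass (adjusted p = 0.0638). Unc5b was at 2311 and 2382 in Ntn1 KD, where it was called higher (0.60 ± 0.13, adjusted p = 0.0193), a call lost without Ntn1 KD library 1 (0.15) or 2 (0.175). All 10 epithelial markers of a list passed, with summed levels of 55419 to 58400 in the empty vector, 74599 to 79090 in Ntn1 KD and 57463 to 62775 in Unc5b KD. The sums hide calls in both directions. In Ntn1 KD 4 of the 10 were called higher, among them Krt17 (log2 fold change 4.82) and Krt5 (1.75), and Trp63 lower (-1.43). In Unc5b KD Krt17 (3.31) and Krt5 (1.27) were called higher and 0 lower. Of all genes tested, 15.1% and 12.0% were called in these 2 comparisons. Of 10 fibroblast markers, 2 passed and Dpt was at 0 in every library (summed levels 136 to 142 in the empty vector, 217 to 313 in Ntn1 KD and 144 to 241 in Unc5b KD). Of 10 rows for 9 immune markers, 3 were at 0 in every library, and the summed level (1300 to 1542, 456 to 568 and 1098 to 1660) was almost all Csf1r. Of 6 endothelial markers 2 passed (101 to 108, 180 to 223 and 90 to 100), with Cdh5 at 86 and 113 in Ntn1 KD and at 0 to 2 elsewhere. Of 8 hair follicle bulge markers 5 passed (8044 to 8175, 8477 to 8930 and 6251 to 7469). Of 8 melanocyte and nerve markers 4 passed, with Dct at 0 (2386 to 2935, 1117 to 1134 and 1687 to 1846). The part of these markers in the results below was not tested.

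Per kilobase of exon, which allows genes to be compared, Smo had the highest level of the 9 genes in the empty vector, at 468 and 391 scaled reads per kilobase, followed by Gli3 at 282 and 260. Ptch1 came next at 96.3 and 101 per kilobase, above Disp1 at 81.2 and 83.1. Gas1 (26.0 and 94.9 per kilobase) and Hhip (38.8 and 61.3) overlapped, and the higher Gas1 library also lay above Disp1. Gli1, Gli2 and Disp2 were at the bottom, at or below 1.00 per kilobase in both libraries, an amount of 0 to 2 reads for each gene. The cells thus had RNA for the receptor, the transducer and one of the GLI factors, with the other GLI factors near the limit of detection.

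**Figure D1:**
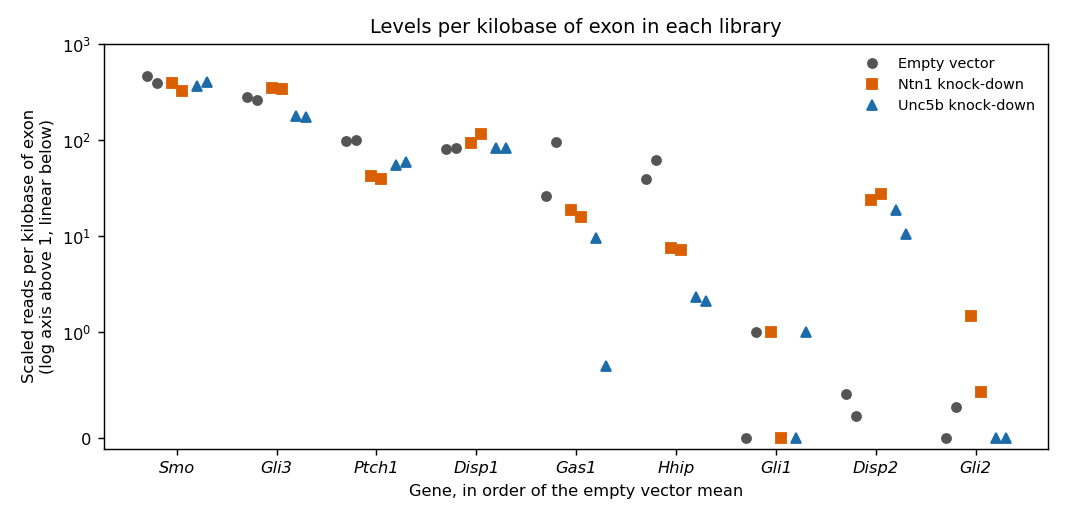
Scaled reads per kilobase of exon (vertical axis, logarithmic above 1 and linear below) for the 9 genes in each of the 6 libraries, ordered by the empty vector mean. Smo and Gli3 stayed highest in all libraries, while Disp2 moved from the bottom in the empty vector to 23.9 and 27.2 per kilobase in Ntn1 KD and 18.5 and 10.5 in Unc5b KD.

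Ptch1 and Hhip, the target genes that restrain the pathway, were both lower in both knock-downs. Ptch1 (ENSMUSG00000021466, chromosome 13, 63508328 to 63573598 minus strand, GRCm38) encodes the receptor that binds the ligand and holds back Smoothened. It was at 1366 and 1427 in the empty vector, 602 and 557 in Ntn1 KD and 774 and 838 in Unc5b KD. No knock-down library reached the level of an empty vector library. The level was 2.41-fold lower in Ntn1 KD (log2 fold change -1.26 ± 0.13 SE, limma adjusted p = 0.000727) and 1.73-fold lower in Unc5b KD (-0.79 ± 0.13, adjusted p = 0.00684), and both calls held in all 14 alternatives of the analysis. In sorted bulk samples fewer cells that express a gene and less RNA per cell cannot be told apart.

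Hhip (ENSMUSG00000064325, chromosome 8, 79965851 to 80058006, minus strand) encodes a membrane protein that binds Hedgehog ligands and keeps them from the receptor. Its level was 352 and 556 in the empty vector, 67 and 64 in Ntn1 KD and 21 and 19 in Unc5b KD, from 179 and 243 reads in the empty vector libraries to 10 and 8 in Unc5b KD. The 3 groups did not overlap, and the libraries of each knock-down lay close together while those of the empty vector were 204 apart. Hhip was 6.93-fold lower in Ntn1 KD (log2 fold change -2.67 ± 0.29, adjusted p = 0.000879) and 22.7-fold lower in Unc5b KD (-4.16 ± 0.29, adjusted p = 0.000281), with both calls kept in all 14 alternatives. An exon of Hhip overlaps the small RNA gene Gm27820 by 175 bases on the other strand. Gm27820 was at 18 and 14 in the empty vector, at 0 in both Ntn1 KD libraries and at 2 and 0 in Unc5b KD. The strand setting of the counting is not given in the sources used here, so reads of the overlapping genes cannot be told apart.

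Ptch1 and Hhip are classical GLI target genes. The 250 bases before their RefSeq start sites (GRCm38.p6) were searched on both strands for the GLI consensus GACCACCCA and its core CCACCC. They are printed from 5′ to 3′ along the gene's strand, in lower case with matches in capitals, for Ptch1 from chr13:63565736-63565985 (minus strand) and for Hhip from chr8:80058009-80058258 (minus strand). Neither window overlaps an annotated exon, but that of Ptch1 lies inside the span given above for the gene.
Ptch1: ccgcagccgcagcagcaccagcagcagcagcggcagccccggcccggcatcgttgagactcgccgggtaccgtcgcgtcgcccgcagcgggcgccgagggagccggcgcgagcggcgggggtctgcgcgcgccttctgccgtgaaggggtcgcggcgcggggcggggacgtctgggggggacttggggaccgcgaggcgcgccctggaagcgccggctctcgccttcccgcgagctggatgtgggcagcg
Hhip: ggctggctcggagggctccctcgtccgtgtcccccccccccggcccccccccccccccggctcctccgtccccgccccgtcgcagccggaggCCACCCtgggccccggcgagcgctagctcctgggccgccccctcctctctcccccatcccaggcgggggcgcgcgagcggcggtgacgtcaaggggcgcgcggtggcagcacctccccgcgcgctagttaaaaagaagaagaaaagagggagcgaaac
The Hhip window holds 1 match to the core and 0 to the consensus, and the Ptch1 window holds 0 of either. Among the other members, the core was found for Smo (1), Gli3 (1) and Gli2 (2) and not for Gas1 or Disp1. All 250 bases of the Gli3 window and of the Gas1 window lie in annotated exons. A part of GLI binding in the falls was not tested. Over all 32851 windows of the same length, 28.1% hold the core and 0.225% the consensus, which contains the core. A match is a string of letters and not a bound site, and a window without one says nothing of sites further away. Both windows are rich in G and C, at 78.4% for Ptch1 and 76.0% for Hhip.

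Gas1 (ENSMUSG00000052957, chromosome 13, 60174405 to 60177365, minus strand) encodes a membrane-anchored co-receptor that helps the ligand bind Patched. It was at 77 and 281 in the empty vector, 55 and 46 in Ntn1 KD and 28 and 2 in Unc5b KD. The knock-down libraries were all below the empty vector, but the empty vector libraries differed more from each other than the lower of them did from Ntn1 KD. The mean was 11.9-fold lower in Unc5b KD (log2 fold change -3.33 ± 0.76, adjusted p = 0.0261). This call was lost without empty vector library 2 (adjusted p = 0.0904) or Unc5b KD library 2 (0.140), which holds 1 read of Gas1, and in 5 other alternatives, with a range of 0.00810 to 0.140 over all 14. The log2 fold change itself moved to -2.43 without that empty vector library and -2.21 without that Unc5b KD library, and lay between -4.45 and -2.21 across alternatives. In Ntn1 KD the difference did not pass (-1.47, 95% interval -3.21 to 0.28, adjusted p = 0.239). Exons of Gas1 overlap the long non-coding RNA gene Gm48488 on the other strand by 589 bases, so its reads are uncertain in the same way.

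**Figure D2:**
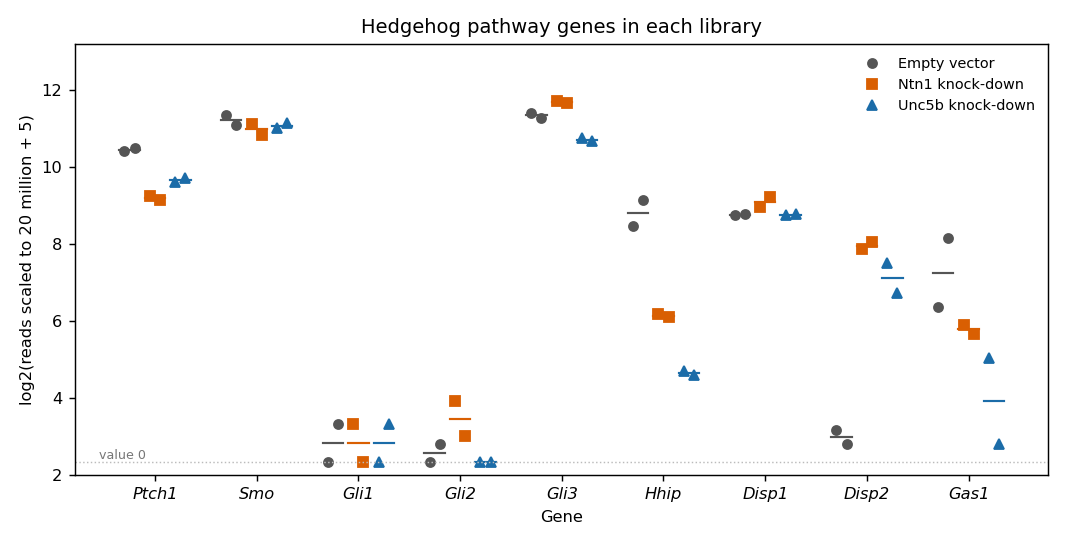
Log2 of the scaled reads plus 5 (vertical axis) for each gene and library, with a short line at the mean of each group. Ptch1 and Hhip lie lower in all 4 knock-down libraries than in the empty vector, Disp2 lies higher, and Gli1 and Gli2 lie at or near the dotted line that marks a value of 0.

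Smo (ENSMUSG00000001761, chromosome 6, 29735503 to 29761365, plus strand) encodes Smoothened, the membrane protein that passes the signal into the cell. It was at 2633 and 2197 in the empty vector, 2209 and 1835 in Ntn1 KD and 2063 and 2249 in Unc5b KD, so the groups overlapped. The log2 difference from the empty vector was -0.26 in Ntn1 KD (95% interval -0.58 to 0.07, adjusted p = 0.270) and -0.16 in Unc5b KD (-0.48 to 0.17, adjusted p = 0.527). A fall of 2-fold lies outside both intervals.

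Among the GLI factors, Gli3 was the one with a measurable level, and it differed between the knock-downs. Gli3 (ENSMUSG00000021318, chromosome 13, 15463235 to 15730026, plus strand) had levels of 2706 and 2490 in the empty vector, 3334 and 3272 in Ntn1 KD and 1710 and 1642 in Unc5b KD. The 3 groups did not overlap. In Unc5b KD it was 1.55-fold lower (log2 fold change -0.63 ± 0.11, adjusted p = 0.00832), a call lost without Unc5b KD library 2 (adjusted p = 0.0619) and kept in the other 13 alternatives. In Ntn1 KD its mean was 1.27-fold the empty vector's, which did not pass (0.35 ± 0.11, adjusted p = 0.0670) in any of the 14 alternatives. Exons of Gli3 overlap Gm6556 on the other strand by 188 bases, a gene at 21 to 52 in all libraries.

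Gli1 (ENSMUSG00000025407, chromosome 10, 127329882 to 127341974, minus strand), itself a target gene and the usual readout of an active pathway, was at 0 and 5 in each group's 2 libraries, in either order, which is 0 or 2 reads. Gli2 (ENSMUSG00000048402, chromosome 1, 118834132 to 119053619, minus strand), the main activator, was at 0 and 2 in the empty vector, 10 and 3 in Ntn1 KD and 0 in both Unc5b KD libraries. Its highest value, 10, stands for 4 reads. Both genes had a mean of 2.5 over the 6 libraries, below the filter of 20, and were not tested. At this depth no difference between groups was detectable for either. Exons of Gli1 overlap Arhgap9 and the antisense gene Gm47200 on the other strand.

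Disp2 and Disp1 encode members of the Dispatched family of membrane transporters, of which Disp1 is the one known to release lipid-modified Hedgehog from sending cells. Disp2 (ENSMUSG00000040035, chromosome 2, 118779719 to 118811293, plus strand) had levels of 4 and 2 in the empty vector, 228 and 260 in Ntn1 KD and 177 and 100 in Unc5b KD. These are 2 and 1 reads in the empty vector libraries against 96 and 85 and against 83 and 43. Reads were then summed within each group and scaled for the library totals. The ratio to the empty vector was 76.4 in Ntn1 KD (exact 95% interval 25.7 to 374, for counting error only) and 44.2 in Unc5b KD (14.8 to 217). Both differences passed (limma adjusted p = 0.000203 and 0.000427) and held in all 14 alternatives. Disp2 passed the filter only through the knock-downs, and the fitted log2 fold changes of 4.97 ± 0.34 and 4.12 ± 0.34 depend on the 5 added to each value.

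Disp1 (ENSMUSG00000030768, chromosome 1, 183086266 to 183221522, minus strand) had levels of 424 and 434 in the empty vector, 490 and 596 in Ntn1 KD and 427 and 431 in Unc5b KD. Unc5b KD libraries lay between those of the empty vector, and Ntn1 KD libraries lay above all others. Neither difference passed, with a log2 difference of 0.33 in Ntn1 KD (95% interval -0.03 to 0.69, adjusted p = 0.207) and an interval of -0.36 to 0.36 in Unc5b KD (adjusted p = 1.0). Per kilobase Disp1 remained above Disp2 in every library, at 81.2 to 114 against 0.209 to 27.2.

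The comparison of the knock-downs with each other sets the group targeted at the ligand against the group targeted at the receptor, which differed in the level of both targeted genes. Gli3 was 1.97-fold higher in Ntn1 KD than in Unc5b KD (log2 fold change 0.98 ± 0.11, adjusted p = 0.00245), a call lost without Ntn1 KD library 1 (adjusted p = 0.0771) or 2 (0.0650). Hhip was 3.28-fold higher in Ntn1 KD (1.50 ± 0.29, adjusted p = 0.0199). Hhip lost this call without Ntn1 KD library 1 (0.181) or 2 (0.158), without Unc5b KD library 1 (0.0837) or 2 (0.107), with no filter (0.0812), with weights on the recovered reads (0.118) and in 1 further alternative. Ptch1 was lower in Ntn1 KD than in Unc5b KD in both libraries, but the difference of -0.47 (95% interval -0.77 to -0.18) did not pass (adjusted p = 0.0667). Disp2 (0.85, interval 0.06 to 1.63, adjusted p = 0.186), Gas1 (1.86, interval 0.12 to 3.61, adjusted p = 0.190), Disp1 (0.33, adjusted p = 0.266) and Smo (-0.10, interval -0.42 to 0.23, adjusted p = 0.744) did not pass either. Ptch1, Hhip and Disp2 were called in both knock-downs, each time against the same empty vector libraries. The share of all genes called in both was not counted. Of these 3 genes, only Hhip passed the test between the knock-downs, and it did so in 7 of 14 alternatives.

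**Figure D3:**
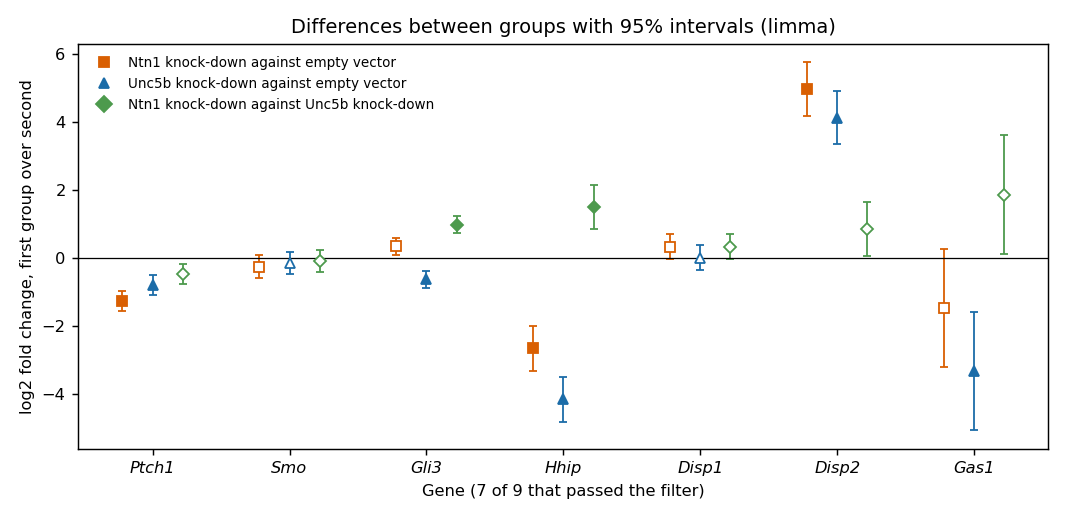
Log2 fold change of the 7 tested genes in the 3 comparisons, with 95% intervals from the limma fit, filled where the adjusted p was under 0.05. The intervals of Ptch1 and Hhip lie below 0 and those of Disp2 above 0 in both comparisons with the empty vector, while Gli3 lies on opposite sides.

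In all, 7 of the 9 genes passed the filter. In Ntn1 KD against the empty vector, 1 of the 7 rose and 2 fell, where 8.04% of the 15330 genes tested rose and 7.06% fell (15.1% in either direction). Against the same empty vector libraries, 1 of 7 rose and 4 fell in Unc5b KD, where 5.90% of all genes rose and 6.07% fell (12.0% in either direction). Between the knock-downs, 2 of 7 were higher in Ntn1 KD and 0 lower, beside 4.15% and 2.95% of all genes (7.10% in either direction). The count of 0 lower is from limma at an adjusted p under 0.05. It was also 0 with voom, and 1 (Ptch1) at an unadjusted p under 0.05. The median log2 difference of the 7 genes was -0.26 in Ntn1 KD and -0.63 in Unc5b KD, where that of all genes was -0.02 and 0.04. The genes were chosen as a group with results of these data known, and passing the filter depends on the groups in which a gene is high, so these counts are a description.

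The genes with the most similar profile over the 6 libraries were sought for each of the 5 genes called in any comparison, by the Euclidean distance between log2 profiles centred on their own means. Hhip lay closest to RP23-198D4.2 (ENSMUSG00000110831, named Gm48159 in GENCODE, an antisense RNA gene on chromosome 10, 29534717 to 29614471), at a distance of 0.112. RP23-198D4.2 was at 67 and 114 in the empty vector, 10 and 9 in Ntn1 KD and 0 in both Unc5b KD libraries. At 0 its log2 level is set by the 5 added to each value, so its distance from Hhip and its rank hold for that choice. The next for Hhip, Mrgprb2 (0.781) and Sord (0.792), were several times as far. Ptch1 lay closest to Zscan22 (0.141), Tbc1d19 (0.144) and Plagl2 (0.202), and Tbc1d19 was at 1273 and 1242, 514 and 538, and 699 and 748 in the empty vector, Ntn1 KD and Unc5b KD. Gli3 lay closest to Fam120a (0.102), Fmnl2 (0.120) and Slain2 (0.160), Disp2 to Sel1l3 (0.822), Slfn3 (1.04) and Trim68 (1.24), and Gas1 to Slfn10-ps (0.963), Nebl (1.02) and Plcb1 (1.15). The points of each profile are the same 6 libraries that gave the calls.

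Ligand genes were at the limit of detection. Shh was at 0 in all 6 libraries, Dhh at 0 in 5 and at 3 in Ntn1 KD library 2, which is 1 read, and Ihh at 0 to 6. Of a list of 88 other symbols from the pathway, 85 were in the table and 69 passed the filter. In Ntn1 KD 11 of these rose and 7 fell, and in Unc5b KD 8 rose and 10 fell, which is 26.1% of the 69 in each, beside 15.1% and 12.0% of all genes. The list was chosen with earlier results of these data known, so its shares and those of its groups below are a description. Of the 18 calls in each comparison, 4 held in all 14 alternatives. Most of the 18 were lost on leaving out either library of the knock-down concerned, and calls among all genes fell there as well. Between the knock-downs 3 of the 69 were higher in Ntn1 KD (Arrb2, Cxcl14, Gpc4) and 3 lower (Ift52, Snai1, Tctn2). That is 8.70% beside 7.10% of all genes. These 6 calls were lost on leaving out either Ntn1 KD library, as were most calls among all genes.

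Among commonly used target genes of the pathway, 16 of 22 passed the filter, and members moved both ways. In Ntn1 KD 3 rose (Ccnd2, Foxf1, Foxl1) and 3 fell (Bmp4, Foxf2, Sfrp1), and in Unc5b KD 3 rose (Ccnd2, Foxf1, Fst) and 5 fell (Bmp4, Cxcl14, Foxf2, Sfrp1, Sox9). These calls are 37.5% and 50% of the 16, beside 15.1% and 12.0% of all genes tested, as a description only, since the list was chosen with earlier results known. Sfrp1, which encodes a secreted Wnt antagonist, was at 853 and 1038 in the empty vector, 119 and 131 in Ntn1 KD and 147 and 116 in Unc5b KD. Its fall of 7.56-fold and 7.19-fold (limma adjusted p = 0.000203 and 0.000298) held in all alternatives. Foxf2, a forkhead factor of mesenchyme next to Hedgehog-producing epithelium, was at 322 and 215, then at 59 and 31 and at 19 and 5. Ccnd2, which encodes cyclin D2, moved the other way, from 61 and 190 in the empty vector to 1187 and 1052 in Ntn1 KD and 474 and 572 in Unc5b KD. Bmp4, a bone morphogenetic protein gene, was at 96 and 265, 5 and 9, and 43 and 19, and passed the filter only through the empty vector. Foxf2 lost its call in Ntn1 KD without its library 1 (adjusted p = 0.0514) or 2 (0.112), and Bmp4 lost its call in Unc5b KD without empty vector library 2 (0.121) or Unc5b KD library 2 (0.186). Ccnd2 lost its call in Unc5b KD without its library 1 (0.0529) or 2 (0.0967), and kept it in Ntn1 KD in all alternatives. Foxf1, at 10 and 32, 119 and 119, and 103 and 63, lost its call in each knock-down without either library of that knock-down, and in Unc5b KD also without empty vector library 1 (0.0597). Foxl1 lost its call in Ntn1 KD without empty vector library 2 (0.0897) or either Ntn1 KD library, and Fst its call in Unc5b KD without its library 2 (0.122). Each of the 3 target genes called higher in Unc5b KD was thus lost on leaving out at least 1 library. Cxcl14, a chemokine gene, was at 41 and 126, 131 and 199, and 9 and 7, a fall of 10.4-fold in Unc5b KD (adjusted p = 0.0121) that was lost without its library 1 (0.0517) or 2 (0.0846). Sox9, a transcription factor gene of hair follicle progenitors, was at 6542 and 5184, 5072 and 5425, and 3894 and 3734, and its 1.54-fold fall in Unc5b KD (adjusted p = 0.0198) was lost without either library of that knock-down (0.0735 and 0.121).

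**Figure D4:**
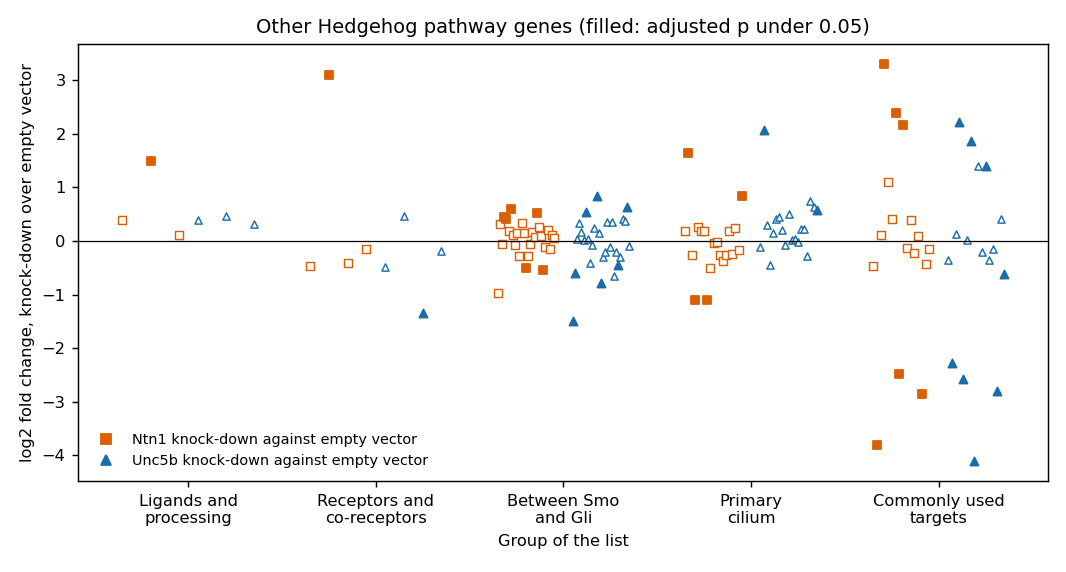
Log2 fold change against the empty vector of the 69 other pathway genes that passed the filter, by group of the list, filled where the adjusted p was under 0.05. The widest spread, in both directions, is among the target genes, and the genes acting between Smo and the GLI factors stay within -1.50 and 0.84.

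Genes acting between Smo and the GLI factors gave calls in both directions. All 27 in the table passed the filter, and 4 rose and 2 fell in Ntn1 KD, and 3 rose and 4 fell in Unc5b KD. That is 22.2% and 25.9% of the 27, beside 15.1% and 12.0% of all genes. Fkbp8, which encodes an immunophilin that restrains the pathway in the neural tube, was at 2857 and 2648 in the empty vector, 1947 and 1948 in Ntn1 KD and 1701 and 1492 in Unc5b KD. Its 1.72-fold fall in Unc5b KD (limma adjusted p = 0.00471) held in all alternatives, and its 1.41-fold fall in Ntn1 KD (0.0259) was lost without either library of that knock-down or without empty vector library 1. Arrb1, which encodes a beta-arrestin, was at 281 and 325, 124 and 187, and 141 and 76, and its 2.79-fold fall in Unc5b KD (0.0201) was lost without empty vector library 2 or Unc5b KD library 2. Sufu, the main cytoplasmic inhibitor of the GLI factors, was at 739 and 599 in the empty vector, 694 and 743 in Ntn1 KD and 1161 and 922 in Unc5b KD. It was called higher in Unc5b KD (log2 fold change 0.63 ± 0.17, adjusted p = 0.0459), but in 5 of 14 alternatives only, and not without empty vector library 2 or either Unc5b KD library, nor with TMM or median-of-ratios scaling. Csnk1g3, a casein kinase gene, rose in both knock-downs (1.51-fold and 1.46-fold), and Prkaca, the catalytic subunit of protein kinase A that primes GLI3 for processing, fell in both (1.46-fold and 1.36-fold). These 4 calls were each lost without either library of the knock-down concerned, and that of Prkaca in Unc5b KD also without either empty vector library.

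Of the 19 cilium genes that passed, Cc2d2a and Tulp3 rose in both knock-downs, and Dync2li1 and Ift52 fell in Ntn1 KD. The share called was 21.1% in Ntn1 KD and 10.5% in Unc5b KD, beside 15.1% and 12.0% of all genes, so in Unc5b KD it was no higher than the background. Cc2d2a, a gene of the ciliary transition zone, was at 35 and 21 in the empty vector, 90 and 101 in Ntn1 KD and 145 and 118 in Unc5b KD. Its rise held in all alternatives in Unc5b KD (4.70-fold, limma adjusted p = 0.00419). In Ntn1 KD Cc2d2a lost its call without library 1 (adjusted p = 0.0742) or 2 (0.0930). Tulp3, which brings receptors into the cilium, was at 643 and 599, 1063 and 1177, and 906 and 964. Its rise of 1.80-fold and 1.51-fold (adjusted p = 0.00450 and 0.0247) was lost in each knock-down without either of its libraries, and in Unc5b KD also without empty vector library 2. Ift52, a subunit of the intraflagellar transport complex, was at 560 and 691, 262 and 315, and 750 and 683. It was lower in Ntn1 KD than in either other group (2.17-fold and 2.48-fold, adjusted p = 0.00473 and 0.00528). Without Ntn1 KD library 1 both calls of Ift52 were lost (0.0715 and 0.0986), and without library 2 the one against Unc5b KD.

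Of the other receptors and co-receptors 4 were tested, with 1 called in each knock-down, and of the ligands and their processing genes 3 were tested, with 1 called in Ntn1 KD and 0 in Unc5b KD by limma (1, Adam17, at an unadjusted p under 0.05). So few genes allow no reading against the background of 15.1% and 12.0%. The glypican gene Gpc4 was at 28 and 87 in the empty vector, 473 and 459 in Ntn1 KD and 64 and 79 in Unc5b KD, a rise of 8.10-fold in Ntn1 KD that held in all alternatives (limma adjusted p = 0.00259). Gpc6, a further glypican gene, was at 963 and 1694, 963 and 960, and 564 and 442, and fell 2.64-fold in Unc5b KD (adjusted p = 0.0113), though not without Unc5b KD library 2 (0.0937). Hhat, which encodes the enzyme that adds palmitate to the ligand, was at 24 and 27, 76 and 86, and 30 and 46. It rose 3.18-fold in Ntn1 KD (adjusted p = 0.0175), a call lost without either Ntn1 KD library. Exons of Bmp4, Ccnd2, Foxf1, Foxf2, Fst and Fkbp8 overlap other genes, with the same uncertainty as for Hhip.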

How the data were processed

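RNA from sorted cells was extracted with a column kit and made into libraries with the Ovation Solo system, per the labels' protocols. STAR, Picard and HTSeq and the build GRCm38 (mm10) are named in the submitters' processing notes, without versions, and strand setting and annotation were not given in the sources used. The deposited table holds a score per gene and library: whole-number reads scaled by the authors to one common total per library and rounded. Because of the rounding no count model was run.

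For each of 15330 genes with a mean of at least 20 over the 6 libraries, log2(value + 5) was fitted with limma 3.58.1 (R 4.3.3, variance trend, 3 residual degrees of freedom, 2-sided tests, Benjamini-Hochberg adjustment over all tested genes). The 3 groups were fitted together, and a gene was called at an adjusted p under 0.05. Fold values are ratios of group means of the scaled reads, and log2 fold changes, on the log2(value + 5) scale, understate low genes. Per-kilobase levels used exon lengths, and positions come from GENCODE M21, which holds 49412 of the 49671 gene IDs. Genes named were the 9 members, the targeted genes, the 3 nearest profiles of each called member, the ligands and part of the called genes of the pathway list. Some called genes acting between Smo and the GLI factors were counted but not named. The cell type markers named and genes that overlap a member fall outside that rule and were chosen after their values were seen. The members and lists were chosen with earlier results of these data known. The fit was also run on simulated reads drawn with the same spread setting for every gene. That run is a check of the code and says nothing of the calls here. Alternatives were other pseudocounts (1 and 20), filters (none, or a mean of 50), scalings (TMM, median of ratios), no variance trend, a replicate block, only the 4 libraries compared, each library left out, and, chosen after seeing the data, voom weights on reads recovered from the spacing of the values. Part of the shared genotype and 1 gene of the pathway list are not reported here.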

Additional observations from a re-analysis of the deposited data

How the results depend on the processing

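Over 14 alternatives for each of the 7 tested genes, 98 of 98 values in Ntn1 KD kept direction and call, 85 of 98 in Unc5b KD and 88 of 98 between the knock-downs. Values that stayed uncalled count as kept here. In the main fit 3 of the 7 genes were called in Ntn1 KD, 5 in Unc5b KD and 2 between the knock-downs. Of 2314 genes called in Ntn1 KD, the count was 1289 with no filter, 1462 with no variance trend, 1465 with the replicate block and 507 to 2769 with a library left out (507 without Ntn1 KD library 1, 563 without library 2). For Unc5b KD 1835 became 791, 1115 and 1102 in the same order, 950 with only the 4 libraries compared and 680 to 2428 with a library left out (991 and 680 without Unc5b KD library 1 or 2). Between the knock-downs 1088 became 302, 454 and 459, 1856 with only the 4 libraries compared and 34 to 330 with a library left out (34 and 52 without Ntn1 KD library 1 or 2, 318 and 330 without Unc5b KD library 1 or 2). A group left with 1 library is assumed to vary like the others. In both comparisons with the empty vector the count rose without empty vector library 1 and fell without any other library. The cause was not tested. Of the 5 Hedgehog genes called in Unc5b KD, 3 to 5 remained in number with a library left out (3 without Unc5b KD library 2). Of the 2 called between the knock-downs, 1 was called with no filter, with the replicate block and with voom on recovered reads, and 0 to 1 with a library left out. Uncalled values near 0 changed sign. Smo between the knock-downs was -0.2307 without Ntn1 KD library 1 and 0.03629 without library 2. Disp1 in Unc5b KD was -0.01654 without empty vector library 1, 0.0167 without library 2 and -0.006568 without Unc5b KD library 2. Disp1 was also at -0.04099 under TMM, -0.03131 under median of ratios and -0.0003762 under voom on recovered reads. Library numbers are shared between groups, but nothing says that they pair libraries: the library differences correlated at 0.16, -0.45 and -0.17 between groups. With the replicate block Hhip lost its call between the knock-downs (adjusted p = 0.0539) and Gas1 its call in Unc5b KD (0.0629), and no other of the 9 genes did. Of the calls on the other pathway genes, the block ended 5 of 18 in Ntn1 KD, 7 of 18 in Unc5b KD (Sufu, Arrb1, Prkaca, Tulp3 and Bmp4 among them) and 2 of 6 between the knock-downs. Genes under 3 reads in every library fell below the filter and were not tested in the main fit.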

Other observations

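The Cre line and the hair follicle role of the pathway make markers of the follicle bulge of interest beside the Hedgehog genes. Lgr5, a hair follicle stem cell gene and the driver of the Cre, was at 43 and 322 in the empty vector, 5 and 9 in Ntn1 KD and 2 in both Unc5b KD libraries. It fell in both (limma adjusted p = 0.0226 and 0.0120), but the empty vector libraries differed from each other more than the lower one did from the knock-downs. Lgr5 passed the filter only through the empty vector, and the filter was not applied anew when a library was left out. Without empty vector library 2, which has the high value, the call in Ntn1 KD was lost (0.0594), as it was without Ntn1 KD library 1 (0.160) or 2 (0.116). The call in Unc5b KD was lost without its library 1 (0.0611) or 2 (0.0776). Gas1 and Hhip had their higher values in the same empty vector library, as did Ptch1 and Disp1 by smaller margins. Smo, Gli3 and Disp2 had theirs in empty vector library 1.

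Krt15, a keratin of the bulge, was at 20 and 41 in the empty vector, 105 and 83 in Ntn1 KD and 152 and 81 in Unc5b KD. It rose in both (limma adjusted p = 0.0372 and 0.0254), and both calls were lost without empty vector library 1 (0.101 and 0.0606). Without Ntn1 KD library 1 (0.227) or 2 (0.144), and without Unc5b KD library 1 (0.145), Krt15 was not called either. Nfatc1, a transcription factor that keeps bulge stem cells quiescent, was at 853 and 803, 497 and 474, and 949 and 873. It was lower in Ntn1 KD than in the empty vector (1.71-fold, adjusted p = 0.00754) and than in Unc5b KD (1.88-fold, 0.00822). Without Ntn1 KD library 1 or 2 neither call of Nfatc1 held (0.0777 and 0.0940 against the empty vector, 0.111 and 0.130 against Unc5b KD), and the second was also lost without Unc5b KD library 1 (0.0630). Lgr6 did not pass in either knock-down (586 and 1818, 2794 and 2936, 2466 and 1543, adjusted p = 0.0608 and 0.232). Tbx1 was at 0 in every library.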
